A study of Mus musculus with 13 samples.

Results

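The cytosolic ribosomal protein genes were examined in mouse hearts after transverse aortic constriction (TAC), a surgical narrowing of the aorta that loads the left ventricle, with and without tauroursodeoxycholic acid (TUDCA), a bile acid given against endoplasmic reticulum stress. Members were the genes whose array symbol is Rpl or Rps followed by a number, with an optional suffix a, x, l or y, or is Rpsa, Rplp0, Rplp1 or Rplp2. This symbol rule, which uses no measured value, found 53 of the 8336 genes on the arrays, read by 63 probes. Of these, 30 encode proteins of the large subunit, 21 proteins of the small subunit and 2 (Rplp0 and Rplp1) proteins of the stalk. Rpsa and Rplp2 had no measured probe, and kinases and pseudogenes named after ribosomal proteins were left out.

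RNA of whole hearts was measured on Illumina MouseRef-8 bead arrays, with 1 array for each of 13 hearts. All hearts came from male C57BL/6 mice aged 8 to 10 weeks and were taken 1 week after surgery. The TUDCA-TAC group (4 hearts) had aortic constriction and TUDCA at 300 mg/kg per day by gavage from the day of surgery. The TUDCA-Sham group (3 hearts) had sham surgery and the same TUDCA. The Veh-TAC group (3 hearts) had constriction and the water vehicle, and the Veh-Sham group (3 hearts) had sham surgery and water. Levels are log2 signals after background removal and quantile normalization, so a difference of 1 is a doubling of signal. Differences were tested with limma over all 8336 genes, and a gene was called at a Benjamini-Hochberg adjusted p under 0.05.

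Each ribosome has a small subunit, which reads the mRNA, and a large subunit, which joins the amino acids. Their proteins are made in near equal numbers, and most of their mRNAs are abundant in every cell. These mRNAs typically begin with a cytosine in a run of pyrimidines, the 5′ terminal oligopyrimidine (TOP) tract, through which mTOR signalling sets their translation, so mRNA level and protein output of this family can move apart. A few members have paralogues with a restricted pattern: Rpl3l is the striated muscle counterpart of Rpl3, whose protein lies near the centre where peptide bonds form.

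The family showed 2 patterns. First, by the brightest probe of each gene, TAC left most members near their sham level in hearts given vehicle. Rpl3l fell and Rpl3 rose there, and in TUDCA-TAC hearts Rpl3l was higher than in Veh-TAC hearts. Second, most members were slightly lower in the TUDCA-TAC group. Of its 4 hearts, replicates 3 and 4 had the lowest member medians of the study and stood apart from the other hearts.

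The start of transcription is shown first, since it holds the sequence by which the family is known. RefSeq promoters (build GRCm38.p6) were found for 45 of the 53 members, and there was no entry for Rpl21, Rpl23a, Rpl29, Rpl3, Rpl30, Rplp1, Rps14 and Rps20. A run of at least 5 pyrimidines (C or T, transcribed strand) that began with C within 5 bases of the annotated start was found in 21 of 45 members (46.7%), against 18.5% of all 27025 genes with an entry. Runs of at least 8 were found in 13 members (28.9%) and 4.38% of all genes. The letters CTTTC, which can lie inside such a run, were within the 30 bases around the start, on either strand, in 12 members (26.7%) and 7.34% of all genes. A match is a description of letters, and annotated starts can be off by some bases. The lines give the 15 bases before and the 15 bases from the annotated start, with the longest such run of 4 or more bases in capitals. The first 4 are among the members with runs of at least 8 bases, and the others are the members called in a comparison that have an entry.
Rpl28 (chr7:4792950-4792979, plus strand): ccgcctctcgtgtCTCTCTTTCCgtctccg
Rpl38 (chr11:114668565-114668594, plus strand): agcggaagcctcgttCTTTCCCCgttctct
Rps6 (chr4:86857353-86857382, minus strand): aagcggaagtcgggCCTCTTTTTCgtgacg
Rps27 (chr3:90213634-90213663, minus strand): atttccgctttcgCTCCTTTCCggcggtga
Rps9 (chr7:3704026-3704055, plus strand): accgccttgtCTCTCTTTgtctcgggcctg
Rpl39 (chrX:37085208-37085237, minus strand): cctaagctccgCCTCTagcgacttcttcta
Rpl3l (chr17:24727811-24727840, plus strand): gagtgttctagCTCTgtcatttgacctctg
Rpl10 (chrX:74270801-74270830, plus strand): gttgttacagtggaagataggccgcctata
Rpl36a (chrX:134585639-134585668, plus strand): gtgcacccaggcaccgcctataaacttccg
Rpl5 (chr5:107900513-107900542, plus strand): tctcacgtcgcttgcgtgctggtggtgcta

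Rps9 and Rpl39 carried runs of 8 and 5 bases. The run of Rpl3l had 4 bases, a length reached by 48.9% of the members and 30.8% of all genes, and Rpl10, Rpl36a and Rpl5 had no run of 4 or more. Members called in a comparison were thus found with and without a run of 5 or more at their annotated start.

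All 53 members were detected on all 13 arrays. Their mean log2 signals ran between 7.09 (Rpl21) and 16.06 (Rpl41), with a median of 14.55, against 9.25 for all genes. Signals of different probes do not rank the mRNAs, and they bear here on precision only. The probe of a member came within 10% of the highest intensity of an array for 6 members, and on all 13 arrays for Rpl41 and Rps20, so changes of these members can be understated. The median residual SD within groups was 0.15 for members, 0.21 for all genes and 0.11 for the 253 other genes with a mean log2 signal of at least 14.

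The hearts themselves set a limit that precedes the comparisons. After each member was centred on its mean over 13 hearts, the median member stood at -0.24 in TUDCA-TAC replicate 3 and -0.22 in replicate 4, against -0.04 to 0.13 in the other 11 hearts. In replicate 3, 47 of 53 members were below their own mean, and in replicate 4, 49 were. Of the 53 members, 41 (77.4%) had their lowest value of all hearts in one of these hearts, as did 22.7% of all genes. The first principal component of the members held 50.6% of their variance, with the same sign for 50 of 53 members, and it placed these hearts at -1.78 and -2.45, against -0.65 or above for the others.

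Other measures were read in the same hearts. A list of 17 measured genes with long transcripts (of 28 listed) had medians of 0.84 and 0.94 in TUDCA-TAC replicates 3 and 4, against -0.51 to 0.36 elsewhere, and its summed linear signal was 67519 to 130040 in TUDCA-TAC hearts and 57304 to 103034 in the others. The 35 measured genes with short transcripts of the respiratory chain (of 38 listed) had medians of -0.17 and -0.08 there, against -0.15 to 0.17 elsewhere, so that only replicate 3 was outside that range, by a small margin. The background level of the array, taken as the 25th percentile of raw intensity, was 270.4 in replicate 3 and 164.4 in replicate 4, against 259.2 to 314.5 in the others. Every TUDCA-TAC array (164.4 to 270.4) lay below every Veh-TAC array (302.7 to 309.9), so background cannot be told apart from group between them. TUDCA-Sham replicate 3 was at 259.2 and the other sham arrays at 302.8 to 314.5. The 90th percentile of raw intensity was 3168.6 in TUDCA-TAC replicate 4, against 2019.1 to 2578.3 in all other hearts. Its ratio to the 25th percentile was 19.3 in that heart, against 6.49 to 8.52, so this array had a wider range of intensity than the others. Nor was the opposite course of long transcripts limited to TUDCA-TAC replicates 3 and 4. The 6 hearts with the highest member medians were the 6 with the lowest medians of the long transcripts, and they came from all 4 groups. The part of transcript length or array background in the members' levels was not tested beyond the alternatives given in the closing section. Results that rest on TUDCA-TAC replicates 3 and 4 are given with and without them. These hearts were singled out by the members' own low values, so leaving them out was bound to raise the members' levels in the TUDCA-TAC group.

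**Figure D1:**
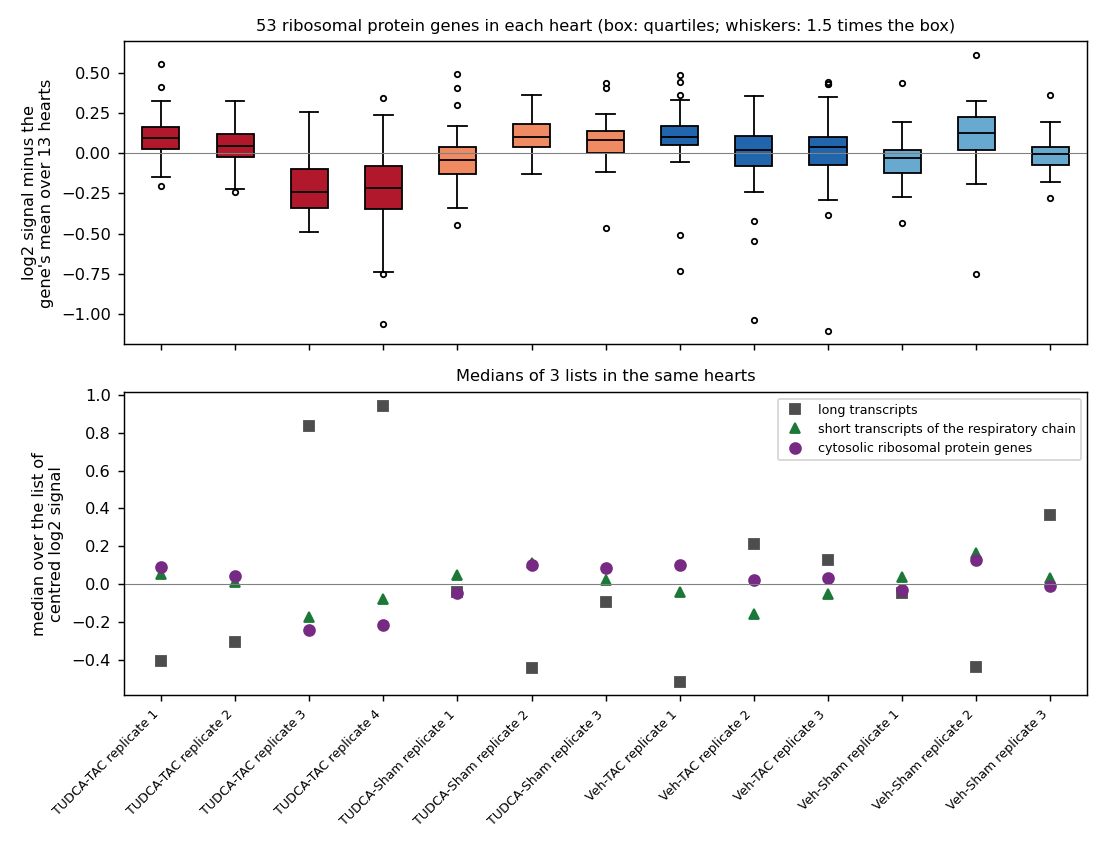
Upper panel: log2 signal of the 53 ribosomal protein genes minus each gene's mean over 13 hearts, 1 box per heart (line, median; box, quartiles; whiskers, most extreme values within 1.5 times the box height). Lower panel: medians of the members, of 17 long transcripts and of 35 short respiratory chain transcripts in the same hearts. TUDCA-TAC replicates 3 and 4 have the lowest member medians (-0.24 and -0.22) and the highest medians of long transcripts (0.84 and 0.94).

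The first comparison asked how pressure overload changed the family without the drug. In Veh-TAC against Veh-Sham hearts, 2 of 53 members were called (3.77%), where 25% of all genes were called (12.5% or 1045 genes higher, and 12.5% or 1038 genes lower). With median scaling in place of quantile normalization, 1356 genes were higher and 357 lower, the median of all genes was 0.12 and that of the members 0.02, and the same number of members, 2, was called. The called members were Rpl3l, which fell, and Rpl3, which rose. An unadjusted p under 0.05 was reached by 5 members, against 37.3% of all genes. The median log2 fold change of the members was 0.04 and that of all genes -0.03, and 42 of the 53 members changed by less than 0.2. Since bright probes can respond less, members with a mean log2 signal of at least 14 were set beside other genes as bright: 2 of 33 such members (6.06%) and 25.3% of 253 such other genes were called. Large subunit members had a median of 0.05 (2 of 30 called) and small subunit members -0.01 (0 of 21 called, and 1 at an unadjusted p).

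**Figure D2:**
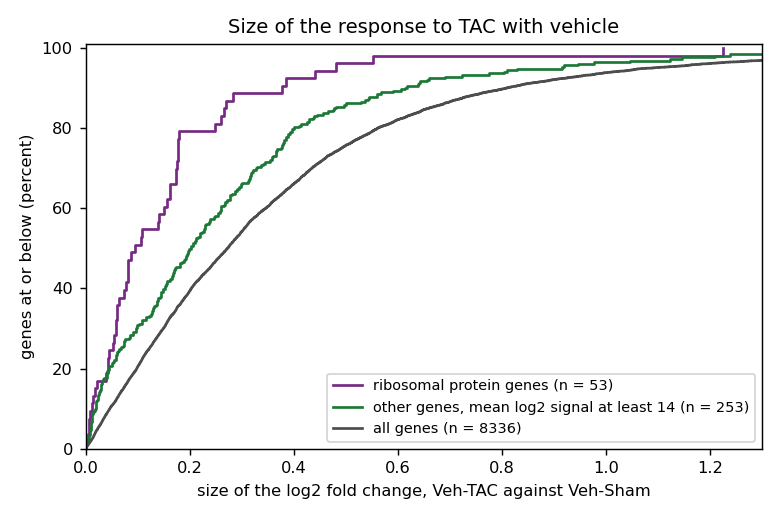
Cumulative percent of genes (vertical axis) by the size of their log2 fold change in Veh-TAC against Veh-Sham hearts (horizontal axis), for the 53 members, for 253 other genes with a mean log2 signal of at least 14, and for all 8336 genes. The curve of the members lies to the left of the others over most of the axis, and 42 of 53 members are below 0.2, with Rpl3l at the far right.

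Rpl3l, the muscle paralogue of Rpl3, had log2 signals of 14.84, 14.31 and 14.25 in Veh-TAC hearts, against 15.78, 15.58 and 15.71 in Veh-Sham hearts. Every Veh-TAC heart was below every other heart of the study. The log2 fold change was -1.23 (SE 0.14, limma, adjusted p = 0.00016), the largest in size of the 53 members. In hearts given TUDCA, Rpl3l had 15.34, 15.49, 15.42 and 15.58 in TUDCA-TAC hearts and 15.75, 15.71 and 15.75 in TUDCA-Sham hearts. These groups did not overlap either, with all TUDCA-TAC hearts lower, but the log2 fold change of -0.28 was not called (SE 0.13, limma, adjusted p = 0.33).

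Set directly against each other, the constricted groups differed in Rpl3l: TUDCA-TAC hearts averaged 15.46 ± 0.10 (SD, n = 4) and Veh-TAC hearts 14.46 ± 0.33 (SD, n = 3), a log2 fold change of 1.00 (SE 0.13, limma, adjusted p = 0.0015). Without TUDCA-TAC replicates 3 and 4 it was 0.95 (limma, adjusted p = 0.010), so this result does not rest on the hearts that stood apart. The response to TAC with TUDCA minus the response with vehicle was 0.95 (SE 0.20, limma, adjusted p = 0.040). That call was not stable: it was kept in 7 of 22 alternatives, with adjusted p between 0.0040 and 0.12, and without TUDCA-TAC replicates 3 and 4 the value was 0.91 at an adjusted p of 0.071. The sham groups did not separate, at 15.74 ± 0.02 in TUDCA-Sham and 15.69 ± 0.10 in Veh-Sham hearts (SD, n = 3 each).

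Rpl3, the ubiquitous paralogue, moved the other way. It had log2 signals of 14.98, 15.17 and 15.26 in Veh-TAC hearts, against 14.64, 14.69 and 14.64 in Veh-Sham hearts, with no overlap and a log2 fold change of 0.48 (SE 0.10, limma, adjusted p = 0.0059). In TUDCA-TAC hearts it had 14.86, 14.90, 14.82 and 14.64, and in TUDCA-Sham hearts 14.61, 14.69 and 14.74, which overlapped (log2 fold change 0.12, limma, adjusted p = 0.58). The probes of the pair read at most 79.6% (Rpl3l) and 59.4% (Rpl3) of the highest intensity of an array.

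Each paralogue's change was taken from its own Veh-Sham mean, and the change of Rpl3 minus that of Rpl3l was formed in each heart. It was 0.55, 0.44, 0.43 and 0.09 in TUDCA-TAC hearts, -0.10, 0.01 and 0.02 in TUDCA-Sham hearts, 1.18, 1.90 and 2.05 in Veh-TAC hearts, and -0.10, 0.14 and -0.04 in Veh-Sham hearts. The shift between the paralogues was thus largest in all Veh-TAC hearts, and 3 of 4 TUDCA-TAC hearts lay between them and the sham hearts, with replicate 4 inside the range of the sham hearts. It averaged 0.38 ± 0.20 in the TUDCA-TAC group (SD, n = 4) and 1.71 ± 0.47 in the Veh-TAC group (SD, n = 3).

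**Figure D3:**
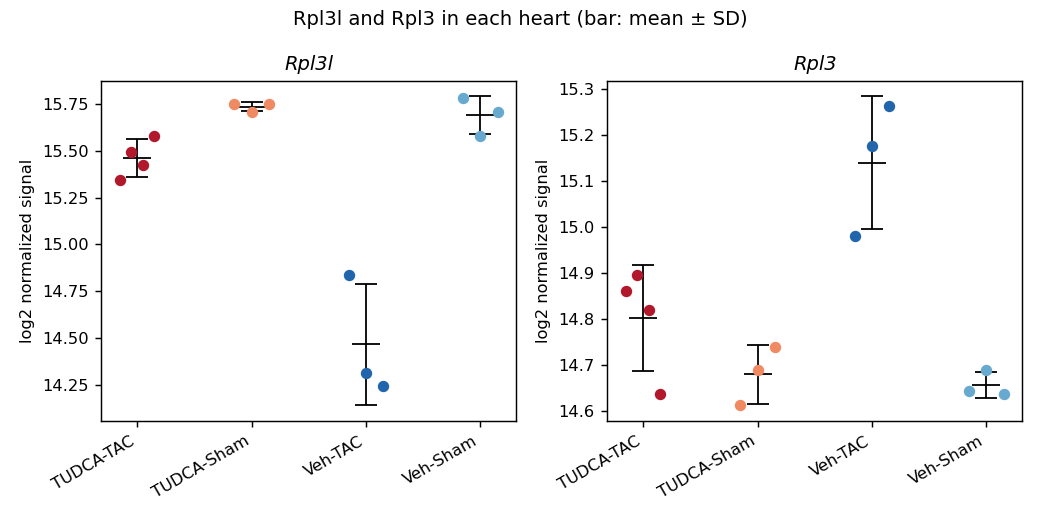
Log2 normalized signal of Rpl3l (left) and Rpl3 (right) in each of 13 hearts, by group (points), with the group mean and SD (bars). The Veh-TAC hearts are lowest for Rpl3l (14.25 to 14.84) and highest for Rpl3 (14.98 to 15.26).

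In whole hearts, fewer cells of a type and less RNA per cell cannot be told apart, which bears on a muscle gene such as Rpl3l. Of the cardiomyocyte markers, 7 of 8 listed were measured, and 1 was called lower in Veh-TAC than in Veh-Sham hearts (Tnni3, -0.61), with a list median of -0.06. Their summed signal was 280950 to 295091 in Veh-TAC hearts and 299825 to 320875 in Veh-Sham hearts. Among them, Actc1 had a mean log2 signal of 16.07, beside 16.06 for Rpl41, so the change of so bright a marker can be understated. Fibroblast markers were called higher in 4 of 6 measured genes (of 7 listed), with a summed signal of 70566 to 82960 in Veh-TAC and 54591 to 60780 in Veh-Sham hearts, and myeloid markers in 4 of 5 (of 8 listed), with 17278 to 22056 and 9080 to 10418 in the same groups. Of the remaining marker lists, 0 of 4 endothelial and 0 of 3 smooth muscle genes were called, 1 of 2 erythroid genes was lower, 2 of 2 proliferation genes were higher, and 0 of 6 lymphocyte markers were measured. The part of the cell makeup in the levels of Rpl3 and Rpl3l was not tested.

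The 250 bases before the annotated start of Rpl3l are shown because it was the member that changed most. The capitals mark CANNTG, the E-box letters that basic helix-loop-helix factors, those of muscle included, can bind, beginning 145, 43 and 20 bases before the start. The pattern CANNTG, in which N is any base, is matched on both strands at once. It was found, in this length, in 51.1% of members and 66% of all genes, so its presence is common. The letters CATTCC, searched on both strands, were not in this window, and were found in 8.89% of members and 12.6% of all genes. RefSeq lists 2 starts for the gene, of which the first is used.
Rpl3l promoter (chr17:24727576-24727825, plus strand): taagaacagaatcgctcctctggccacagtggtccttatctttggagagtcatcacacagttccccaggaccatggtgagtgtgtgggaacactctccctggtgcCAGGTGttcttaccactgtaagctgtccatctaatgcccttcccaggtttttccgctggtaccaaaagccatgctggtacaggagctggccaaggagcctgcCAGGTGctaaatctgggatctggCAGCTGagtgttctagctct

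Of the other 51 members, 0 were called by limma with TAC in vehicle hearts (3 at an unadjusted p under 0.05), and 9 had a change of 0.2 or more in size, up to -0.55 for Rpl7a. Hearts of the Veh-TAC group were all above those of the Veh-Sham group for 10 members (Rpl10, Rpl12, Rpl29, Rpl3, Rpl31, Rpl36a, Rpl39, Rplp0, Rps16 and Rps20) and all below for 4 (Rpl3l, Rpl7a, Rps14 and Rps6). Together these are 26.4% of members, against 43.1% of all genes. By direction, 18.9% of members were all higher, near the 19.4% of all genes, and 7.55% were all lower, against 23.7%. Rpl10, a late-joining protein of the large subunit, had 15.65, 15.65 and 15.71 in Veh-TAC hearts, against 15.45, 15.38 and 15.37 in Veh-Sham hearts, a log2 fold change of 0.27 that missed the threshold (limma, adjusted p = 0.13). Rpl39, which lines the tunnel through which the new peptide leaves, gave 0.27 (limma, adjusted p = 0.12), and Rpl36a 0.26 (limma, adjusted p = 0.17). With TUDCA-TAC replicates 3 and 4 left out of the shared estimate of spread, 6 members were called in this comparison, where 30.5% of all genes were. They were Rpl3, Rpl10, Rpl39 and Rplp0, higher, and Rpl3l and Rpl7a, lower.

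The stalk protein Rplp0, widely used as a control gene, was among the more variable members. It had 10.14, 9.90 and 10.12 in Veh-TAC hearts, against 9.60, 9.82 and 9.42 in Veh-Sham hearts (log2 fold change 0.44, SE 0.33, limma, adjusted p = 0.36). In TUDCA-TAC hearts it spread over 10.24, 10.01, 9.25 and 8.64, with replicates 3 and 4 at the low end. Rplp1, its stalk partner, lay near the top of the intensity scale.

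The 3 brightest members, Rpl41, Rps20 and Rplp1, had log2 fold changes of 0.01, 0.06 and 0.01 in Veh-TAC against Veh-Sham hearts, which became -0.12, -0.073 and -0.088 with median scaling, and their probes read up to 99.3%, 99.0% and 96.7% of the highest intensity of an array. Of the 3 dimmest, Rpl7a was at 7.53, 6.84 and 7.09 in Veh-TAC hearts, against 7.55, 7.99 and 7.58 in Veh-Sham hearts (log2 fold change -0.55, SE 0.25, limma, adjusted p = 0.13). The other dim members, Rpl21 (0.16) and Rps15a (-0.25), had changes smaller than 1 SE, with SEs of 0.24 and 0.27. Rps27 (-0.14) and its paralogue Rps27l (0.06), which is a p53 target in human cells, did not separate from Veh-Sham (limma, adjusted p = 0.53 and 0.79).

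Small subunit members gave no call with TAC in vehicle hearts. Rps16 had 14.48, 14.33 and 14.42 in Veh-TAC hearts, against 14.16, 14.32 and 14.21 in Veh-Sham hearts (log2 fold change 0.18, limma, adjusted p = 0.39). Rps6, the substrate of the S6 kinases, had 12.44, 12.38 and 12.26 in Veh-TAC hearts, against 12.49, 12.79 and 12.64 in Veh-Sham hearts (log2 fold change -0.28, limma, adjusted p = 0.18). The Veh-TAC hearts were thus all higher for Rps16 and all lower for Rps6, each by less than the test could call. Rps2 was the only small subunit member with an unadjusted p under 0.05 (log2 fold change -0.38, limma, adjusted p = 0.13). Within the Rps27 pair, Rps27 had 15.14, 14.96 and 14.92 in Veh-TAC hearts, against 14.98, 15.32 and 15.14 in Veh-Sham hearts. Rps27l had 14.83, 14.71 and 14.86 in Veh-TAC hearts, against 14.55, 14.92 and 14.74 in Veh-Sham hearts. The groups overlapped for both genes, and neither was called.

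A second probe existed for some members, and 9 members had more than 1. For Rpl31, the chosen probe gave 0.18 and a much dimmer probe 0.74 in Veh-TAC against Veh-Sham hearts (limma, adjusted p = 0.20 and 0.011 over all probes). For Rpl23, the chosen probe gave 0.00 and the dimmest of 3 probes 0.45 (limma, adjusted p = 0.99 and 0.049 over all probes). The dimmer probes of Rpl38 and Rps24 gave 0.45 and 0.49 without passing the threshold, where the chosen probes gave -0.02 and 0.02. The second probes of Rpl21 (-0.02), Rpl29 (-0.05), Rps3 (-0.07), Rps9 (-0.01) and Rps19 (-0.02) were near no change. The remaining probe of Rpl23 gave 0.32 (limma, adjusted p = 0.49 over all probes). Of the 10 further probes, 2 were called, both higher. The 5 positive values ran between 0.32 and 0.74, and the 5 negative values between -0.07 and -0.01. The chosen probes of Rpl23, Rpl38 and Rps24 read up to 84.6%, 95.6% and 93.6% of the highest intensity of an array, so their changes can be understated. The counts of members above hold for the brightest probe of each gene, and which transcripts the dimmer probes read was not tested.

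**Figure D4:**
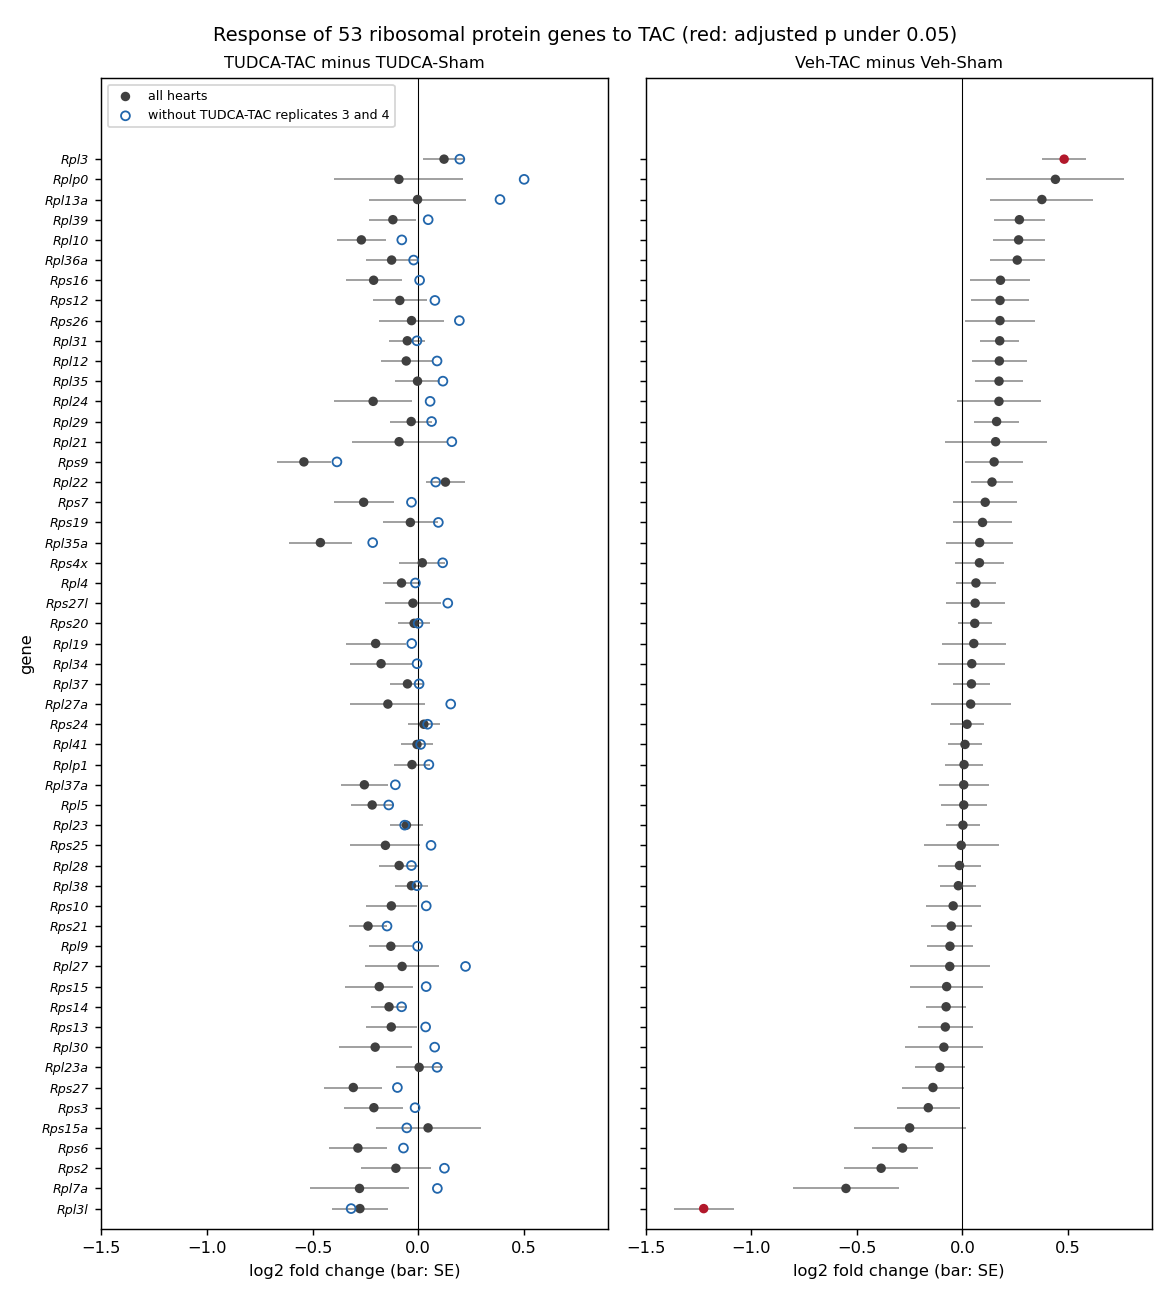
Log2 fold change (horizontal axis; bar, SE) of each of the 53 members in response to TAC, in hearts given TUDCA (left panel) and vehicle (right panel), ordered by the vehicle response. Rpl3 and Rpl3l are called (red) in the right panel and no member is called in the left panel, where open circles give the values without TUDCA-TAC replicates 3 and 4 and lie mostly to the right of the filled ones.

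The second comparison asked for the response to TAC under TUDCA. In TUDCA-TAC against TUDCA-Sham hearts, 0 of 53 members were called by limma, against 1.79% of all genes (1.02% higher and 0.768% lower, or 85 and 64 genes, and 202 and 30 with median scaling), and 6 members reached an unadjusted p under 0.05, against 16.6% of all genes. The median log2 fold change was -0.11, with 47 of 53 members negative, while the median of all genes was -0.00061. Without TUDCA-TAC replicates 3 and 4 the median of the members was 0.04, and 30 members were positive. The negative direction of the family in this comparison was thus seen only with those hearts, which were singled out by their low member levels. Leaving them out was bound to raise the members' median, so it does not test the direction.

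Rps9, a protein of the small subunit, had the largest difference here, with 14.06, 13.97, 13.72 and 13.69 in TUDCA-TAC hearts, against 14.51, 14.52 and 14.17 in TUDCA-Sham hearts. The groups did not overlap, and the log2 fold change of -0.54 was just outside the threshold (SE 0.13, limma, adjusted p = 0.058). Its second probe, of similar brightness, gave -0.14 (limma, adjusted p = 0.70 over all probes). The chosen probe gave -0.38 without TUDCA-TAC replicates 3 and 4 (limma, adjusted p = 0.21). Rpl35a had 14.56, 14.46, 14.19 and 13.85 in TUDCA-TAC hearts, against 14.63, 14.83 and 14.71 in TUDCA-Sham hearts (log2 fold change -0.46, limma, adjusted p = 0.13), and gave -0.22 without those hearts (limma, adjusted p = 0.37). Rps21 gave -0.24 (limma, adjusted p = 0.21), and -0.15 without them (limma, adjusted p = 0.48). Together with Rpl3l and Rpl10 these were the 5 members whose groups did not overlap, all with TUDCA-TAC lower (9.43% of members, and 8.27% of all genes in that direction).

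The third comparison set the constricted groups against each other. In TUDCA-TAC against Veh-TAC hearts, 7 of 53 members were called (13.2%), where 16.4% of all genes were called (8.17% higher and 8.25% lower, or 681 and 688 genes, and 358 and 542 with median scaling). Rpl3l was higher, and Rpl3, Rpl5, Rpl10, Rpl36a, Rpl39 and Rps9 were lower. The median of the members was -0.10, with 42 of 53 negative, against 0.01 for all genes. Groups did not overlap for 12 members (22.6%), against 26.2% of all genes. By direction, 1 member was all higher (1.89%, against 13% of all genes) and 11 were all lower (20.8%, against 13.2%). Without TUDCA-TAC replicates 3 and 4, Rpl3l alone was called, where 10.7% of all genes were, and the median was 0.02 with 29 members positive. This comparison and the response to TAC with vehicle share the Veh-TAC hearts, so their values are not independent. Cell type markers moved in it too, with 3 of 6 fibroblast genes lower (list median -0.67), 3 of 5 myeloid genes lower (-0.70), 1 of 3 smooth muscle genes higher (0.25), and 0 of 7 cardiomyocyte genes called (0.0018). Fibroblast signal summed to 56302 to 63188 in TUDCA-TAC hearts and 70566 to 82960 in Veh-TAC hearts, and myeloid signal to 7960 to 11402 in TUDCA-TAC hearts and 17278 to 22056 in Veh-TAC hearts. Smooth muscle signal summed to 42542 to 51080 in TUDCA-TAC hearts and 33206 to 44078 in Veh-TAC hearts, and cardiomyocyte signal to 287499 to 311422 and 280950 to 295091 in the same groups. Their part in the members' values was not tested.

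The 6 lower members are given by heart. Rpl10 had 15.42, 15.42, 15.09 and 14.99 in TUDCA-TAC hearts, against 15.65, 15.65 and 15.71 in Veh-TAC hearts (log2 fold change -0.44, SE 0.12, limma, adjusted p = 0.024). Rpl39 had 15.37, 15.29, 15.03 and 14.96 in TUDCA-TAC hearts, against 15.48, 15.52 and 15.58 in Veh-TAC hearts (-0.36, SE 0.11, limma, adjusted p = 0.045). For both genes the last 2 values of the TUDCA-TAC group, replicates 3 and 4, were the lowest of all 13 hearts, and without them the log2 fold changes were -0.24 and -0.20 (limma, adjusted p = 0.10 and 0.22).

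Rpl36a, which lies near the exit site for tRNA, had 13.73, 13.48, 13.26 and 13.54 in TUDCA-TAC hearts, against 13.95, 13.99 and 14.05 in Veh-TAC hearts (-0.50, SE 0.12, limma, adjusted p = 0.019). Here replicates 3 and 4 did not form the low end by themselves, and the value without them was -0.39 (limma, adjusted p = 0.074). Rpl5, which carries the 5S rRNA into the large subunit and can bind Mdm2, had 14.84, 14.98, 14.75 and 14.75 in TUDCA-TAC hearts, against 15.03, 15.29 and 15.25 in Veh-TAC hearts (-0.36, SE 0.10, limma, adjusted p = 0.032). Its level in Veh-TAC hearts was near that in Veh-Sham hearts (0.01), unlike that of Rpl3, Rpl10, Rpl36a and Rpl39, which lay above all Veh-Sham hearts. As for Rpl10 and Rpl39, replicates 3 and 4 were the lowest of all 13 hearts for Rpl5, and without them it gave -0.28 (limma, adjusted p = 0.13).

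Rps9 gave -0.56 (SE 0.13, limma, adjusted p = 0.014) in TUDCA-TAC against Veh-TAC hearts, and -0.11 by its second probe (limma, adjusted p = 0.66 over all probes), so its call depends on the probe. Without replicates 3 and 4 the value of the chosen probe was -0.40 (limma, adjusted p = 0.077). Rpl3 gave -0.34 (SE 0.10, limma, adjusted p = 0.036), and -0.26 without those hearts (limma, adjusted p = 0.13). The directions of these 6 members held without the hearts, and their calls did not. Leaving out Veh-TAC replicate 2 or replicate 3 also left only 1 member called, Rpl3l. The share of all genes called was not taken there, so this drop cannot be read as particular to the members.

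**Figure D5:**
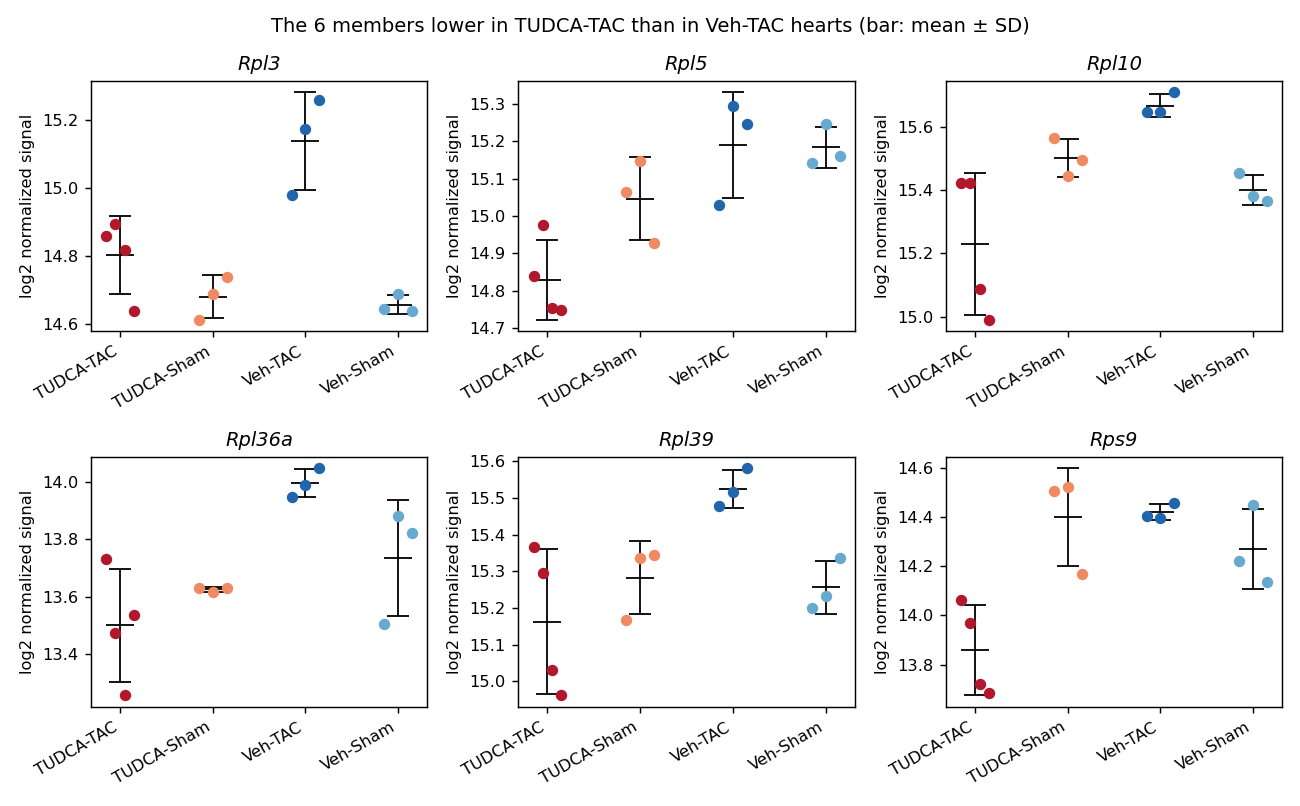
Log2 normalized signal in each heart of the 6 members lower in TUDCA-TAC than in Veh-TAC hearts (points, with the group mean and SD as bars). In every panel all TUDCA-TAC hearts lie below all Veh-TAC hearts, and for Rpl5, Rpl10, Rpl39 and Rps9 the lowest points are TUDCA-TAC replicates 3 and 4.

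No member was called for TUDCA without constriction. In TUDCA-Sham against Veh-Sham hearts limma called 0 of 53 members and 0% of all genes. An unadjusted p under 0.05 was reached by 0 members and 2.45% of all genes, and the methods' t-test called 0 members and 0 genes after adjustment. The median log2 fold change of the members was 0.03, and 50 of 53 changed by less than 0.2, with a median SE of 0.13. The lowest value was -0.20 (Rpl7a) and the highest 0.38 (Rpl21), both among the dimmest members. Groups did not overlap for 5 members (9.43%, against 7.38% of all genes), with Rpl31, Rps16 and Rps20 higher in TUDCA-Sham hearts and Rpl7a and Rps14 lower. The response to TAC with TUDCA minus that with vehicle was called for 1 of 53 members (Rpl3l, as given above) and 2.14% of all genes (0.852% higher and 1.28% lower). An unadjusted p under 0.05 was reached by 6 members and 19.6% of all genes. Its median over members was -0.14, and -0.00077 without TUDCA-TAC replicates 3 and 4.

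Genes that work with the ribosomal proteins were read from lists. Ribosomal proteins that the symbol rule leaves out were measured for 4 of 8 listed (Fau, Rpl22l1, Rpl36al and Rpl7l1), and 0 were called in Veh-TAC against Veh-Sham hearts. Rpl22l1, the paralogue of Rpl22, was lower in TUDCA-TAC than in Veh-TAC hearts (-0.95, SE 0.29, limma, adjusted p = 0.043), at 7.17 ± 0.66 (SD, n = 4) and 8.12 ± 0.23 (SD, n = 3), and gave -0.45 without TUDCA-TAC replicates 3 and 4 (limma, adjusted p = 0.16). Mitochondrial ribosomal proteins, which are encoded by other genes and serve mitochondrial translation, were measured for 71. Of these, 1 was higher and 21 were lower in Veh-TAC than in Veh-Sham hearts (31% called, beside 25% of all genes, with 12.5% of all genes lower, and a list median of -0.27), and 8 were higher in TUDCA-TAC than in Veh-TAC hearts (11.3%, beside 8.17% of all genes). Of the short respiratory chain transcripts, 5 of 35 were lower in Veh-TAC than in Veh-Sham hearts (14.3%, beside 12.5% of all genes), and of the long transcripts 0 of 17 were called.

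Other genes whose mRNAs carry TOP tracts, mostly translation factors, were measured for 18 of 20 listed. In Veh-TAC against Veh-Sham hearts 2 were called higher (11.1%, beside 12.5% of all genes), of which 1, Vim, is no translation factor. Pabpc1, the poly(A)-binding protein, rose by 0.68 (SE 0.14, limma, adjusted p = 0.0037), and Vim, the intermediate filament of mesenchymal cells whose mRNA is of this class, by 0.85 (limma, adjusted p = 0.0021). Pabpc1 averaged 11.38 ± 0.24 in TUDCA-TAC and 12.19 ± 0.02 in Veh-TAC hearts (SD, n = 4 and 3), and its response differed between TUDCA and vehicle by -0.82 (limma, adjusted p = 0.047). Pabpc1 gave, without TUDCA-TAC replicates 3 and 4, -0.73 in TUDCA-TAC against Veh-TAC hearts (limma, adjusted p = 0.0093) and -0.74 for the difference of responses (limma, adjusted p = 0.054). Eif3h, a subunit of initiation factor eIF3, was lower in TUDCA-TAC than in Veh-TAC hearts (-0.92, limma, adjusted p = 0.026), and gave -0.53 without those hearts (limma, adjusted p = 0.15).

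Ribosome biogenesis was measured for 42 of 59 listed genes, and 2 were called in Veh-TAC against Veh-Sham hearts (4.76%, beside 25% of all genes). Taf1d, a subunit of the factor that selects the rRNA gene promoter for RNA polymerase I, rose by 1.07 (SE 0.17, limma, adjusted p = 0.00092), and Gnl2, a GTPase of large subunit maturation, fell by 0.49 (limma, adjusted p = 0.023). Taf1d was lower in TUDCA-TAC than in Veh-TAC hearts (-0.71, limma, adjusted p = 0.012). Of the mTOR signalling genes, 9 of 16 listed were measured, and 1 was called in Veh-TAC against Veh-Sham hearts (11.1%, beside the same 25%). Eif4ebp1, which encodes the translational repressor 4E-BP1 that mTOR phosphorylates, rose by 0.60 in Veh-TAC against Veh-Sham hearts (SE 0.13, limma, adjusted p = 0.0053) and was lower in TUDCA-TAC than in Veh-TAC hearts (-0.46, limma, adjusted p = 0.023). Mtor itself gave 0.70 in TUDCA-TAC against Veh-TAC hearts (SE 0.22, limma, adjusted p = 0.048). Without TUDCA-TAC replicates 3 and 4, Taf1d, Eif4ebp1 and Mtor kept these directions in TUDCA-TAC against Veh-TAC hearts, at -0.61, -0.33 and 0.34, and none of them was called (limma, adjusted p = 0.062, 0.098 and 0.25).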

How the data were processed

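The authors deposited raw bead intensity for 25697 probes on each of 13 arrays, extracted with GenomeStudio, with a detection p-value beside each intensity. The authors also deposited a table of log2 values for 11732 probes, which differed by at most 0.12 from quantile normalized log2 raw intensities. Background was removed with normexp (limma 3.58.1, R 4.3.3, offset 16, with the background estimated through the detection p-values), followed by quantile normalization and log2. Kept were probes of the authors' table with 1 gene symbol. Probes of that table were detected (p under 0.05) on at least 8 arrays, and all other probes on at most 7. A further limit of detection on 3 or more arrays therefore removed none of the 11078 probes. The brightest probe stood for each of 8336 genes.

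One mean per group was estimated with limma for all genes, with Benjamini-Hochberg adjustment. It was tested on simulated data. The 5 contrasts were the response to TAC with each treatment, TUDCA against vehicle in constricted and in sham hearts, and the difference of responses. Genes were named when called in a contrast, when next to the threshold where none was called, as paralogues, as the 3 brightest and 3 dimmest members, as stalk proteins, or for probes of opposite direction. Outside the members, called genes of the lists were named. Rpl23, Rpl38, Rps2, Rps6, Rps24 and the members of the overlap counts and sequence lines were singled out after their values were seen. The members and lists were chosen with earlier results of these data known. Alternatives covered background, normalization, filter (which removed no probe), probe choice, spread, block, background covariate, left-out hearts and the methods' t-test. The study names this t-test for group means in general, while its test for the array calls is not given in the sources used here. Replicates were separate hearts, and their number limits the precision. Symbols came from the platform annotation, which gave 1 symbol for 11078 of the probes that passed.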

Additional observations from a re-analysis of the deposited data

Results flagged for a closer look

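The response of Rpl3l to TAC differed between treatments by 0.95 on the log2 scale (TUDCA minus vehicle, limma, adjusted p = 0.040), which was a test of the difference itself. Within the TUDCA-TAC group of 4 hearts, 20 named members were examined for a heart far from the others, and 2 had one. For Rpl41 the gap of replicate 4 to the nearest heart was 0.84 of the group's range, and for Rps20 it was 0.98, with log2 signals of 16.01 and 15.96 in that heart and at least 16.06 and 16.03 in the other TUDCA-TAC hearts. Chance alone sets apart a heart in about 1 of 20 groups. Both probes read within 10% of the highest intensity on all arrays.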

How the results depend on the processing

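Recomputed under 24 other settings, 2165 of 2360 values of the 20 named members kept their direction and side of the threshold, 82 were weaker and 15 stronger. The other 98 changed sign, with 0 called on either side, and belong to 39 of the results (given last). The setting without the limit on dim probes equals the main one, since that limit removed no probe. Leaving out a heart from a group outside a comparison cannot change its fold change, only its p-value. Part of the values kept was thus fixed in advance. Rpl3l and Rpl3 were called in Veh-TAC against Veh-Sham hearts in all 24 settings (adjusted p up to 0.043 and 0.047), and Rpl3l in TUDCA-TAC against Veh-TAC hearts in 23, the exception being the methods' t-test (adjusted p = 0.083). For TUDCA-TAC against Veh-TAC, the 7 called members became 1 with median scaling, 1 with the array background as a covariate, 2 with only the compared groups in the model, 2 with the replicate block and 0 with the methods' t-test. By that t-test only 1 of all 8336 genes was called in this comparison after adjustment, so its 0 says little about the members. For TUDCA-TAC against TUDCA-Sham, 1 member in place of 0 was called without background removal, with an offset of 50 and with a trended, robust spread. For the difference of responses, the 1 call became 2 without background removal and with the trended spread, and 0 with median scaling, the background covariate and the replicate block. No share of all genes was taken without background removal, with an offset of 50, a trended spread or only the compared groups.

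Without TUDCA-TAC replicates 3 and 4, the counts were 6 for Veh-TAC against Veh-Sham, 1 for TUDCA-TAC against Veh-TAC and 0 for the difference of responses, and the members' median was 0.0353 for TAC under TUDCA, 0.0162 for TUDCA under TAC and -0.00077 for the difference. With single hearts left out, the counts ran between 2 and 3 for Veh-TAC against Veh-Sham, 0 and 1 for TUDCA-TAC against TUDCA-Sham (1 without TUDCA-Sham replicate 3), 1 and 10 for TUDCA-TAC against Veh-TAC (1 without Veh-TAC replicate 2 or 3, 3 without TUDCA-TAC replicate 3 or 4), and 0 and 1 for the difference. The share of all genes was not taken for the counts with single hearts left out. Median scaling placed the median of all genes at 0.12 in both responses to TAC. Replicate numbers were not taken to pair the hearts. Of 18 same-numbered pairs, 8 had correlated deviations over 0.1 (range -0.38 to 0.44), and differently numbered pairs ranged between -0.52 and 0.41. The sample titles carry other animal numbers, and pairs by those were not checked. For all genes, the 1369 calls of TUDCA-TAC against Veh-TAC became 891 without TUDCA-TAC replicates 3 and 4, 900 with median scaling, 804 with the replicate block and 140 with the background covariate. The 149 of TUDCA-TAC against TUDCA-Sham became 232 with median scaling, and the 178 of the difference of responses became 93 without those hearts, 89 with the block and 39 with the covariate. In TUDCA-TAC against Veh-TAC the covariate cannot be separated from the group, since every TUDCA-TAC array had a lower background than every Veh-TAC array. By the fold of 1.5 and unadjusted p of the methods' t-test, assumed here for the arrays, 1 of 53 members was past the limits in Veh-TAC against Veh-Sham (16.2% of all genes). In TUDCA-TAC against TUDCA-Sham it was 0 (4.4%), in TUDCA-TAC against Veh-TAC 1 (9.61%), and in TUDCA-Sham against Veh-Sham 0 (0.3%).

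Log2 fold changes of changed sign were as follows. Without TUDCA-TAC replicates 3 and 4, the response to TAC under TUDCA was 0.16 for Rpl21, 0.047 for Rpl39, 0.011 for Rpl41, 0.091 for Rpl7a, 0.50 for Rplp0, 0.051 for Rplp1, -0.054 for Rps15a, 0.0067 for Rps16 and 0.14 for Rps27l. For TUDCA-TAC against Veh-TAC, Rplp0 then gave 0.077, Rplp1 0.061, Rps16 0.044, Rps27 0.0098 and Rps27l 0.097, and for the difference of responses Rpl21 gave 0.0019, Rplp0 0.061, Rplp1 0.043, Rps27 0.041 and Rps27l 0.080. With the background covariate, the response under TUDCA was 0.075 for Rpl21, 0.015 for Rpl41, 0.016 for Rpl7a, 0.33 for Rplp0, 0.028 for Rplp1, 0.011 for Rps20 and 0.047 for Rps27l. TUDCA-TAC against Veh-TAC then gave 0.019 for Rplp0, 0.055 for Rplp1, 0.0028 for Rps20 and 0.024 for Rps27l, the difference 0.00019 for Rpl41 and 0.014 for Rplp1, and TUDCA-Sham against Veh-Sham 0.0035 for Rps27. With the replicate block, the response under TUDCA was 0.047 for Rpl21, 0.0087 for Rpl41, 0.21 for Rplp0, 0.0095 for Rplp1, -0.019 for Rps15a and 0.040 for Rps27l, and Rplp1 gave 0.020 for TUDCA-TAC against Veh-TAC and 0.0017 for the difference. With median scaling, TAC with vehicle gave -0.12 for Rpl41, -0.085 for Rpl5, -0.088 for Rplp1 and -0.073 for Rps20. TAC with TUDCA then gave 0.069 for Rpl21 and 0.081 for Rplp0, TUDCA-TAC against Veh-TAC 0.083 for Rpl41, 0.032 for Rplp1 and 0.061 for Rps20, and Rpl41 gave 0.029 between the sham groups and 0.054 for the difference. The mean of all probes gave 0.0041 for Rpl21 and 0.024 for Rpl31 in the response under TUDCA.

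With single hearts left out, values that crossed 0 in the response under TUDCA were those of Rpl21 (-0.20 to 0.047), Rpl41 (-0.012 to 0.0087), Rplp0 (-0.33 to 0.21), Rplp1 (-0.060 to 0.0095), Rps15a (-0.23 to 0.24) and Rps27l (-0.11 to 0.040). In TUDCA-Sham against Veh-Sham they were Rpl3 (-0.0059 to 0.058), Rpl39 (-0.0043 to 0.084), Rpl3l (-0.0079 to 0.091), Rplp0 (-0.081 to 0.15), Rps15a (-0.087 to 0.40), Rps27 (-0.12 to 0.057) and Rps27l (-0.075 to 0.11). In Veh-TAC against Veh-Sham they were Rpl21 (-0.11 to 0.36), Rpl41 (-0.00079 to 0.020), Rpl5 (-0.046 to 0.087), Rplp1 (-0.013 to 0.032) and Rps27l (-0.032 to 0.15). In TUDCA-TAC against Veh-TAC they were Rpl7a (-0.090 to 0.27) and Rplp1 (-0.050 to 0.020), and for the difference Rpl21 (-0.45 to 0.020), Rplp1 (-0.068 to 0.0017) and Rps27l (-0.18 to 0.0069).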
